A study of Mus musculus with 18 samples.

Results

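The BCL2 family is the group of related proteins that controls the mitochondrial step of apoptosis. Its expression was followed in bone marrow mesenchymal stem cells (MSCs) of young mice, of old mice, and of old mice after culture beside young cells. The members were chosen by gene symbol, and comprised the guardians Bcl2, Bcl2l1 (encoding BCL-XL) and Mcl1, the effectors Bax and Bak1, and the BH3-only genes Bcl2l11 (BIM), Bbc3 (PUMA), Pmaip1 (NOXA), Bid and Bad. All 10 of 10 listed members were found among the 27179 genes of the normalized counts table. All 10 also reached an average of 10 normalized counts over the 18 libraries, as did 14353 genes in all, and these were tested.

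Effector proteins, once activated, assemble into pores in the outer mitochondrial membrane, and the cytochrome c released through them starts the caspase cascade. Guardian proteins hold effectors and BH3-only proteins in a groove on their surface and so keep the membrane intact. BH3-only proteins are the stress sensors of the family: damage, loss of growth factors or other insults raise or modify them, and their short BH3 helix fills the groove of a guardian or activates an effector directly.

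Messenger RNA libraries were made with a stranded kit from MSCs of male C57BL6 mice grown at low passage and taken after 7 days of culture, with 6 libraries in each of 3 groups. Young MSCs came from mice 6 weeks old and old MSCs from mice of 18 to 24 months, and both are labelled as untreated. Rejuvenated old MSCs, the study's term, were old MSCs, plated at 100000 cells, that shared a Transwell plate with young MSCs across a membrane with 0.4 µm pores that passes secreted molecules and holds back cells. No library came from old MSCs grown beside other old MSCs, so the effect of any second cell layer and that of a young one cannot be told apart here. The replicates are labelled as biological, but neither the labels nor the methods state whether the 6 replicates of a group were separate animals or separate cultures of a common pool, and the p-values below measure only the spread between these libraries. Depth differed between the groups, every rejuvenated old library having more reads than every young one, with 22936251 to 25648769 counted reads per young library (median 24296356), 24965971 to 29559194 per old library (median 27016557) and 26018046 to 29155223 per rejuvenated old library (median 28604258.5).

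The cell label was compared with marker genes, and all 12 of 12 stromal genes of the marker list passed the filter. Their summed normalized counts ran from 322363 to 348916 in the young libraries, from 444860.1 to 471001 in the old and from 435493 to 467784 in the rejuvenated old, and 5 of the genes were higher and 7 lower in young than in old MSCs. The leading stromal gene was Col1a2, a chain of type I collagen, in young MSCs (171857 ± 5042, SD, n = 6) and the chemokine Cxcl12 in old MSCs (197374 ± 7680.4, SD, n = 6). Cxcl12 stood at 9227 ± 166 in young MSCs and Col1a2 at 104079 ± 2525 in old MSCs (SD, n = 6). The higher stromal sum in old than in young MSCs rests on Cxcl12. Thy1, a common MSC marker named after its values were seen, had at most 3 reads in every old library and 198 ± 23.1 normalized counts in young MSCs (SD, n = 6). Eng, another stromal gene of the list named after its values were seen, went the other way. It stood at 163 ± 11.3 in young and 7340 ± 292 in old MSCs (SD, n = 6). Markers of macrophages were also measured. Of 10 macrophage genes, 9 were lower and 1 was higher in young than in old MSCs, and the summed level was 943 to 1062 in the young libraries, 12840.0 to 16326 in the old and 12785 to 15771 in the rejuvenated old. Lyz2, encoding lysozyme, was the most abundant of them in old MSCs (10154 ± 958, SD, n = 6). The defining markers Ptprc (CD45) and Adgre1 (F4/80), named after their values were seen, had 0 reads in every young library and 179 ± 16.6 and 296 ± 29.7 normalized counts (SD, n = 6) in old MSCs. Of the 6 endothelial genes, Cd34, which is also carried by some stromal and blood progenitors, stood at 7006 ± 156 in young and 23.1 ± 3.31 in old MSCs (SD, n = 6). The study's methods also list flow cytometry of the preparations for the surface proteins of Ptprc and Cd34, and the counts here are of RNA alone. Rejuvenated old replicate 1 had 402 normalized counts of Cd34 and lay farthest from its group over all genes, at a root mean square log2 distance of 0.374 against 0.254 to 0.304 for the other rejuvenated old libraries. Among lymphoid markers 5 of 6 had at most 3 reads in every library, Ms4a1, Cd3e, Cd8a and Nkg7 among them, as did the globins Hba-a1 and Hbb-bs among the erythroid markers, 1 of which (Hbb-bt) was not in the table. Their leading gene Epor, the erythropoietin receptor, stood at 10.7 ± 5.94 in young and 773 ± 54.3 in old MSCs (SD, n = 6). The part of these marker differences in the member results was not tested, and in bulk RNA fewer cells of a type and less RNA per cell cannot be told apart.

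The comparison of young with old MSCs joined age with any other difference between these cultures, and these cannot be told apart here. In it 9 of 10 members passed an adjusted p of 0.05, 8 of them lower and 1 higher in young MSCs, although relative to the median gene of its chromosome Bcl2 turned from lower (−0.53) to higher (0.16). Pmaip1, Bid and Bax showed the largest falls toward young, and Bcl2l11, encoding the BH3-only protein BIM, was the member that was higher in young cells. Across all 14353 genes 85.7% passed the same threshold, 41.6% higher and 44.1% lower, so passing it was the usual outcome. The median log2 fold change was −0.54 over the members and −0.02 over all genes tested. For 9 members the 6 young and 6 old libraries did not overlap, as they did not for 73.9% of all genes.

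Exposure of old MSCs to young ones was examined by setting rejuvenated old against old MSCs, where the differences were smaller. Here 5 of 10 members were called, Pmaip1, Mcl1, Bcl2l11 and Bak1 lower and Bbc3 higher in the rejuvenated cells, beside 41.6% of all genes (21.0% higher and 20.6% lower). The members' median log2 fold change was −0.11 and that of all genes 0.01. The groups were apart for Mcl1 and Pmaip1, 2 of 10 members, against 22.0% of all genes. Leaving out single libraries gave counts of 3 to 6, with 3 called without old replicate 1, old replicate 3 or rejuvenated old replicate 2, and without rejuvenated old replicate 1 the same 5 members were called.

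Rejuvenated old against young MSCs asked how far the treated cells still stood from young ones, and 9 of 10 members were called, 8 higher and 1 lower in the rejuvenated cells, although Bcl2 was higher (0.39) by itself and lower (−0.30) relative to the median of chromosome 1. Over all genes 85.6% were called, 44.1% higher and 41.5% lower, and 70.5% had groups that did not overlap, as 9 of 10 members did. The members' median was 0.45 on the log2 scale. These comparisons share libraries: the old ones serve young against old and rejuvenated old against old, and the young ones serve both comparisons with young MSCs. They are not separate tests of a member.

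**Figure D1:**
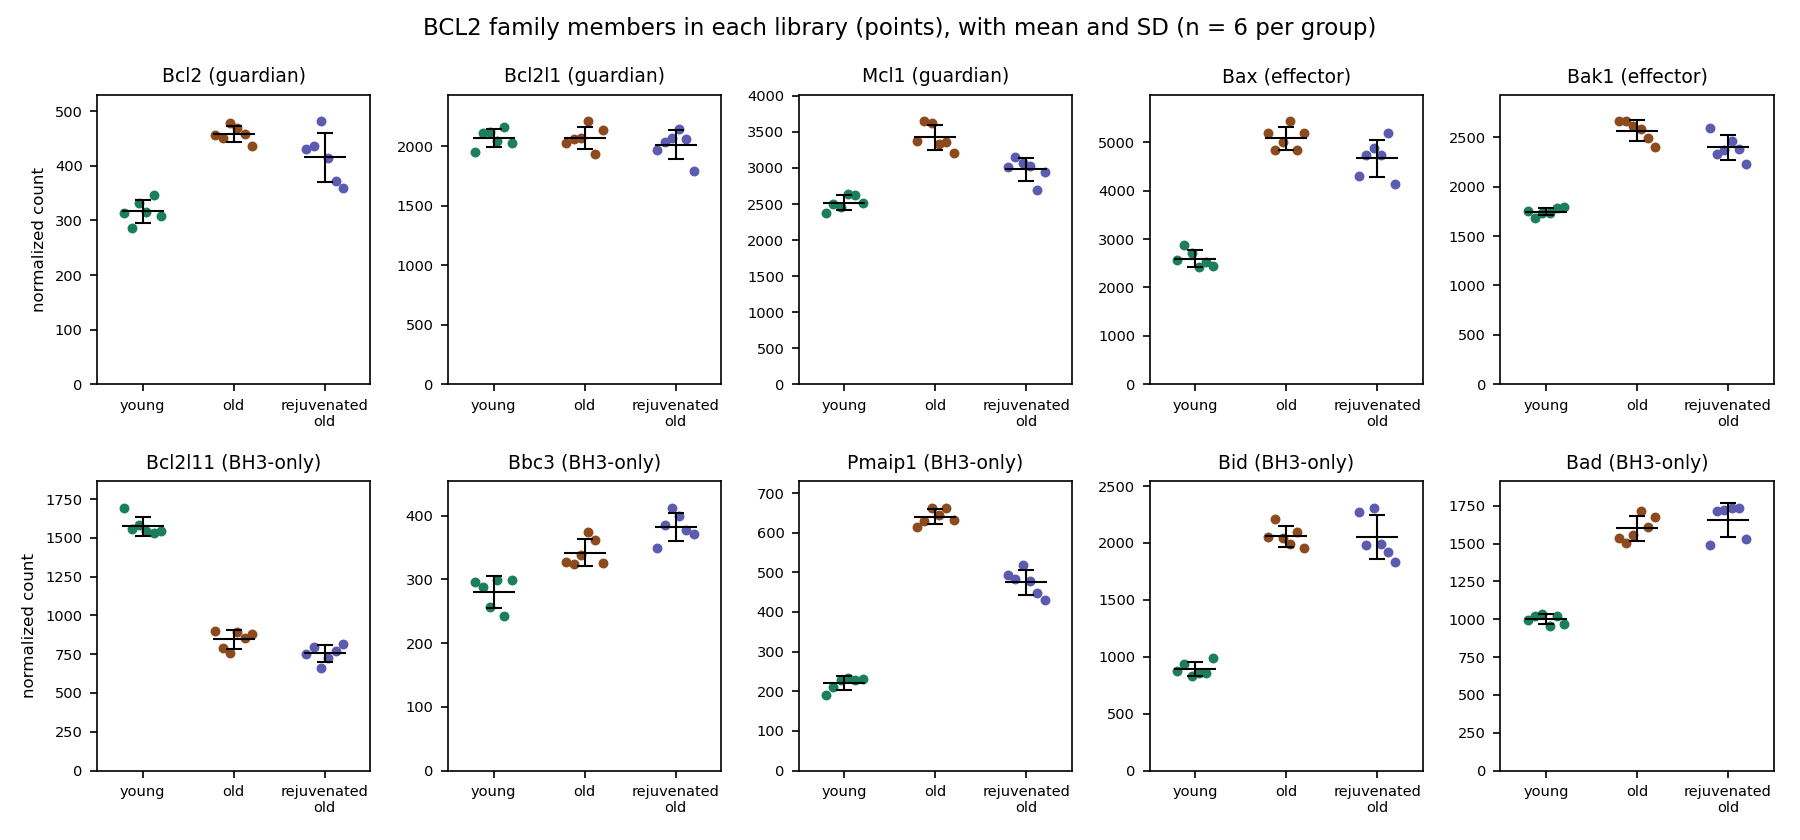
Normalized counts of the 10 members in each library (points; horizontal line and bars, mean and SD, n = 6) for young, old and rejuvenated old MSCs, each panel with its own axis from 0. Pmaip1 and Mcl1 are the members whose 6 rejuvenated old libraries lie wholly between the young and the old ones, at 431 to 519 and at 2689.5 to 3158.

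The guardians share the groove that binds a BH3 helix, and each also carries a BH3 stretch of its own. Bcl2 (gene 12043) lies on the minus strand at chr1:106538176-106714290 of GRCm38 (mm10), Bcl2l1 (12048) on the minus strand at chr2:152758732-152833803 and Mcl1 (17210) on the plus strand at chr3:95656944-95663179. The stretches below each encode the BH3 core within a coding exon, read 5′ to 3′ on the coding strand from GENCODE M21 transcripts, at chr1:106712572-106712613 for Bcl2, chr2:152829694-152829735 for Bcl2l1 and chr3:95659424-95659465 for Mcl1. They are shown because this is the feature that defines the family and places its members on opposite sides of the same contact. Capitals mark the codon of the conserved leucine and the codon pair of the small residue and aspartate that follow it.
Bcl2: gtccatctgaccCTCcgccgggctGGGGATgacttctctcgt
Bcl2l1: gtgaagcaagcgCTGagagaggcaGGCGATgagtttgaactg
Mcl1: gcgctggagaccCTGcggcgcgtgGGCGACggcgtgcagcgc

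Mcl1, a guardian with a short-lived protein, had 2380.0 to 2638 normalized counts over the young libraries (median 2504), 3210.2 to 3647 over the old (median 3364) and 2689.5 to 3158 over the rejuvenated old (median 3021). Every rejuvenated old library was below every old library and above every young one. Its level was 1.36-fold lower in young than in old MSCs (log2 fold change −0.44 ± 0.04, SE, adjusted p = 4.12e-10) and 1.15-fold lower after co-culture with young cells (−0.20 ± 0.04, SE, adjusted p = 0.000325). Rejuvenated old MSCs remained 1.18-fold above young ones (adjusted p = 5.61e-06).

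Bcl2, the founding member, counted 286 to 346 in young (median 315), 437 to 478 in old (median 457) and 359 to 481 in rejuvenated old libraries (median 423). The young libraries were all below the old ones, a fall of 1.45-fold (−0.53 ± 0.06, SE, adjusted p = 6.44e-08), while the median of the 800 tested genes on chromosome 1 was −0.69, so that relative to its chromosome Bcl2 was higher in young by 0.16. Rejuvenated old libraries were spread more widely than old ones, with replicate 3 above every old library and replicates 1, 4, 5 and 6 below every one. The difference of −0.14 from old MSCs (95% interval −0.28 to −0.01) did not pass the limma test (adjusted p = 0.0754). Leaving out rejuvenated old replicate 3 made it pass (−0.19, adjusted p = 0.0185), as did scaling all libraries to the same total (−0.16, adjusted p = 0.0462), in a range of 0.0185 to 0.187 over all alternatives. Annotated exons of Bcl2 overlap D630008O14Rik on the opposite strand, a gene with at most 1 read in any library.

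Bcl2l1, whose protein guards mitochondria in many cell types, ran from 1949 to 2161 in young (median 2079), from 1934 to 2208 in old (median 2060.4) and from 1789.5 to 2141 in rejuvenated old libraries (median 2047). The groups overlapped in all 3 comparisons. The 95% interval of the log2 fold change was −0.08 to 0.08 for young against old (adjusted p = 0.990), −0.13 to 0.04 for rejuvenated old against old (adjusted p = 0.423) and −0.13 to 0.04 for rejuvenated old against young (adjusted p = 0.328). With libraries scaled to the same total, rejuvenated old against young passed, at −0.13 (adjusted p = 0.00294), in a range of 0.00294 to 0.805 over the alternatives.

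The effectors Bax (12028) and Bak1 (12018), which form the pore, both lie on minus strands, at chr7:45461695-45466903 and chr17:27019812-27028627. Their BH3 stretches, the part each exposes when it pairs with another effector molecule, read as follows at chr7:45465994-45466035 and chr17:27022528-27022569, with capitals as for the guardians.
Bax: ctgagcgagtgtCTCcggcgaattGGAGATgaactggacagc
Bak1: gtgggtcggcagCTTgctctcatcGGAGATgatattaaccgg

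Bax counted 2426 to 2879.7 in young (median 2548), 4832 to 5433 in old (median 5095) and 4137 to 5192 in rejuvenated old libraries (median 4742). Young libraries were all far below old ones, 1.96-fold (−0.97 ± 0.05, SE, adjusted p = 2.06e-14). Chromosome 7 moved the opposite way, with a median of 0.61 over its 1032 tested genes, so that Bax stood at −1.58 relative to it, and at −0.18 in rejuvenated old against old. In rejuvenated old MSCs 4 libraries (replicates 1, 2, 4 and 6) fell below the lowest old library and the others lay among the old ones. The difference of −0.13 ± 0.05 (SE) from old MSCs missed the threshold (adjusted p = 0.0515). At −0.16 to −0.12 it passed without young replicate 2 (adjusted p = 0.0382), old replicate 2 (0.0430), old replicate 5 (0.0440), rejuvenated old replicate 3 (0.0428) or rejuvenated old replicate 5 (0.0139), and with DESeq2 (0.0373), edgeR (0.0489), a pseudocount of 10 (0.0474), a minimum mean of 50 (0.0482) or scaling to the same total (0.0234), the range over all alternatives being 0.0139 to 0.137. Against young MSCs the rejuvenated cells were 1.80-fold higher (0.85 ± 0.05, SE, adjusted p = 2.89e-13). Annotated exons of Bax overlap those of Gm45808 on the same strand by 192 bases. How reads in that overlap were assigned is not given in the sources used here.

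Bak1, the effector that sits in the mitochondrial membrane also in healthy cells, ran from 1685 to 1791 in young (median 1745), from 2396 to 2661 in old (median 2596) and from 2232 to 2596 in rejuvenated old libraries (median 2375). Young libraries lay below all others, 1.47-fold under old MSCs (−0.55 ± 0.04, SE, adjusted p = 8.13e-13). Old and rejuvenated old libraries overlapped, and the latter were 1.07-fold lower (−0.10 ± 0.04, SE, adjusted p = 0.0267). Relative to the median of chromosome 17 Bak1 stood at −0.77 in young against old and at −0.15 in rejuvenated old against old. The call in rejuvenated old against old was lost without old replicate 1 (−0.09, adjusted p = 0.0617), old replicate 2 (−0.09, 0.0629), old replicate 3 (−0.09, 0.0531), rejuvenated old replicate 2 (−0.09, 0.0558) or rejuvenated old replicate 6 (−0.08, 0.0678), and in a fit of these groups alone (0.0525), in a range of 0.00538 to 0.0678. An exon of Bak1 overlaps one of Ggnbp1 on the opposite strand, and the strand setting of the read counting is not given in the sources used here. Ggnbp1 went the other way, with 554 ± 49.4 in young MSCs, 141 ± 11.8 in old MSCs and 147 ± 29.9 in rejuvenated MSCs (SD, n = 6).

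The BH3-only proteins share little sequence with the others outside the BH3 helix, and their genes are scattered. Bcl2l11 (12125) at chr2:128126038-128162547, Bbc3 (170770) at chr7:16308398-16318334 and Bad (12015) at chr19:6941861-6951905 lie on plus strands, and Bid (12122) at chr6:120893119-120917062 on the minus strand. The helix itself is encoded at chr2:128147138-128147179 in Bcl2l11, chr7:16313761-16313802 in Bbc3, chr6:120897286-120897327 in Bid and chr19:6950780-6950821 in Bad. The stretch in Pmaip1 was not looked for and is not shown. Capitals mark the same codons as above.
Bcl2l11: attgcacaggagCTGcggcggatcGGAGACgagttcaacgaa
Bbc3: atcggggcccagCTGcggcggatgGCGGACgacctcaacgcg
Bid: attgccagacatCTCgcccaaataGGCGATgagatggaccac
Bad: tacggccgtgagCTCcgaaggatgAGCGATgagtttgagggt

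Pmaip1, whose protein NOXA binds MCL1 in particular, had the widest spread of group means of all members (1.54 on the log2 scale). The gene (58801) lies on the plus strand at chr18:66458604-66465558. It had from 189 to 234 normalized counts in young (median 229), from 614 to 664 in old (median 638) and from 431 to 519 in rejuvenated old libraries (median 480.2). The 3 groups did not overlap, with the rejuvenated old libraries between the others. Young MSCs were 2.90-fold below old ones (−1.54 ± 0.06, SE, adjusted p = 3.47e-17), and rejuvenated old MSCs were 1.35-fold below old ones (−0.43 ± 0.06, SE, adjusted p = 2.69e-06) and 2.15-fold above young ones (1.11 ± 0.06, SE, adjusted p = 1.88e-14). Leaving out any single library kept these calls. Relative to its chromosome Pmaip1 stood at −1.30, −0.39 and 0.91 in these comparisons.

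Bid, which caspase-8 cleaves to carry a death receptor signal to mitochondria, counted 830.2 to 989 in young (median 868), 1958 to 2214 in old (median 2045) and 1837 to 2311 in rejuvenated old libraries (median 1986). All young libraries were below all others, 2.31-fold under old MSCs (−1.21 ± 0.05, SE, adjusted p = 1.05e-15). The rejuvenated old libraries enclosed the range of the old ones, with an interval of −0.12 to 0.10 for their log2 difference (adjusted p = 0.920). Bad, whose protein is held inactive by phosphorylation while growth factors are present, was likewise lowest in the young libraries, with 958 to 1037 in young (median 1006), 1505 to 1718 in old (median 1585) and 1493 to 1739 in rejuvenated old libraries (median 1721). Young was 1.60-fold below old (−0.68 ± 0.04, SE, adjusted p = 1.33e-12), and for rejuvenated old against old the interval was −0.04 to 0.14 (adjusted p = 0.408). The opposite-strand gene Gpr137, an exon of which overlaps Bad, had over its whole length 1040.1 ± 81.4 in young MSCs, 1848 ± 149.8 in old MSCs and 1850.1 ± 107 in rejuvenated old MSCs (SD, n = 6), and like Bad it was lower in every young library than in any other. Its part in the counts of Bad was not tested.

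Bcl2l11, encoding BIM, a strong direct activator that binds every guardian, was the member called higher in young than in old MSCs. It counted 1531 to 1695 in young (median 1552), 755 to 899 in old (median 869) and 663 to 819 in rejuvenated old libraries (median 761). Young libraries were all above the rest, 1.86-fold over old MSCs (0.90 ± 0.05, SE, adjusted p = 1.17e-13, and 1.00 relative to the chromosome). Rejuvenated old libraries overlapped the old ones and were 1.12-fold lower (−0.16 ± 0.05, SE, adjusted p = 0.0131), farther from young than old MSCs were. The distance from rejuvenated old to young MSCs was −1.06 ± 0.05 (SE, adjusted p = 5.10e-15).

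Bbc3, encoding the p53-induced protein PUMA, was the called member that was higher in rejuvenated old than in old MSCs. Its libraries ran from 242 to 299.6 in young (median 292), from 324 to 374 in old (median 333) and from 350.1 to 413 in rejuvenated old MSCs (median 382). Young libraries were below all others, by 1.22-fold against old (−0.29 ± 0.06, SE, adjusted p = 0.000226), and rejuvenated old libraries overlapped the upper old ones. Relative to the median of chromosome 7 Bbc3 stood at −0.90 in young against old, and at 1.01 in place of 0.45 in rejuvenated old against young. The rise over old MSCs was 1.12-fold (0.16 ± 0.06, SE, adjusted p = 0.0449), close to the threshold, and was 0.10 relative to the chromosome. It no longer passed without old replicate 1 (0.15, adjusted p = 0.0844), old replicate 2 (0.15, 0.0918), old replicate 3 (0.16, 0.0708), old replicate 6 (0.15, 0.0861), rejuvenated old replicate 2 (0.16, 0.0701), rejuvenated old replicate 3 (0.14, 0.101), rejuvenated old replicate 4 (0.15, 0.0871) or rejuvenated old replicate 5 (0.17, 0.0590), nor with no filter (0.0588), libraries scaled to the same total (0.0688) or replicate number as a block (0.0635), in a range of 0.0258 to 0.101.

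By role, the young to old comparison called 2 of 3 guardians, 2 of 2 effectors and 5 of 5 BH3-only genes, beside 85.7% of all genes. Rejuvenated old against old called 1 of 3 guardians, 1 of 2 effectors and 3 of 5 BH3-only genes, beside 41.6% of all genes. A member called in one comparison and not in another is not shown to differ between them, since that difference was not tested.

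**Figure D2:**
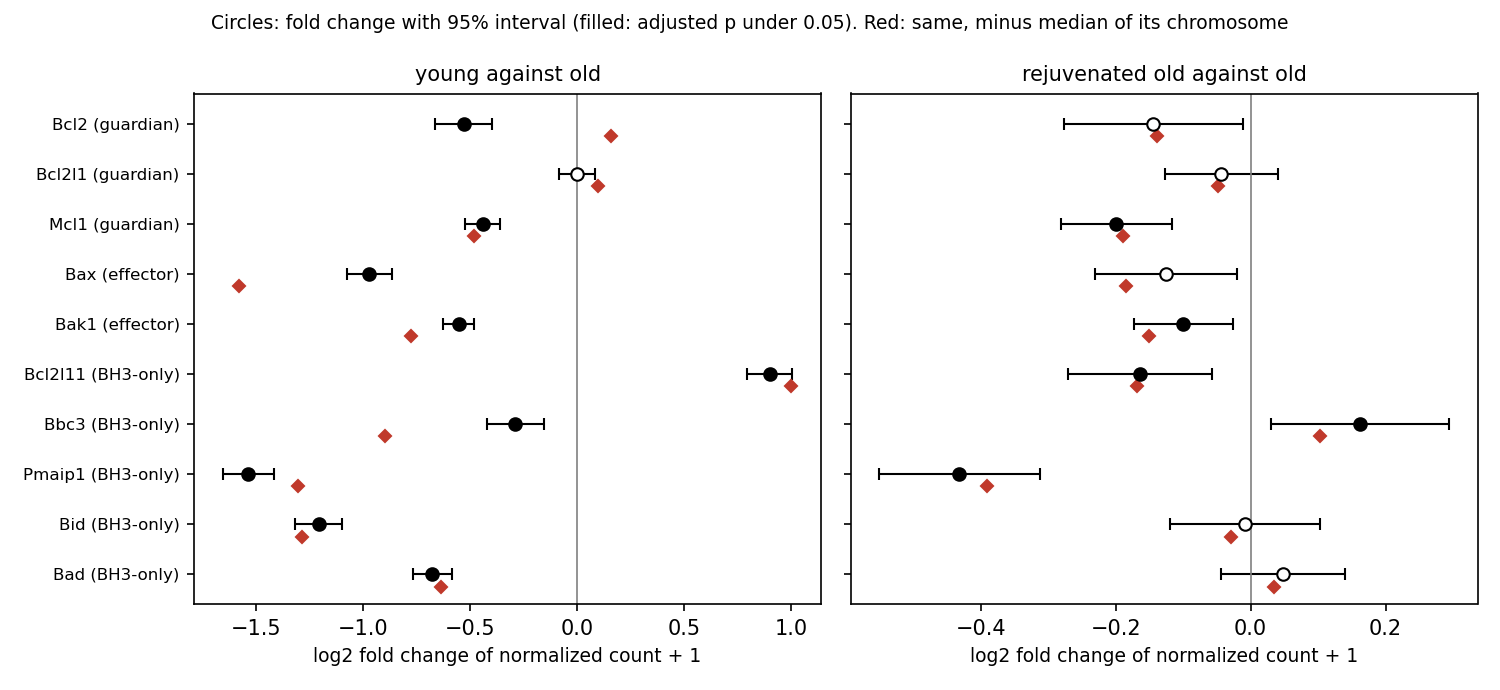
Log2 fold change of normalized count + 1 for each member in young against old and in rejuvenated old against old MSCs (circles with 95% interval, filled where the adjusted p was under 0.05; red diamonds, the same value minus the median of the member's chromosome; the panels differ in scale). Bcl2 in young against old is the called member whose sign turns, from −0.53 to 0.16, and Pmaip1 has the lowest circle in both panels, −1.54 and −0.43, while the lowest diamond in young against old is that of Bax, −1.58.

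Levels of different genes were set side by side after division by the length of all their annotated exons. Which transcripts these cells use was not measured, and the order below holds for that length. Undivided, Bcl2 in young MSCs (mean 317) stood above Bbc3 (280) and Pmaip1 (221). Bcl2l11 in old MSCs (846), also undivided, stood above Pmaip1 (641) and Bbc3 (342). Per kb of exon, Bax was the most abundant member in every group, with 1646 ± 111 in young MSCs, 3224 ± 149 in old MSCs and 2961 ± 246 in rejuvenated old MSCs (SD, n = 6). Bcl2 was the least abundant, with 34.6 ± 2.26 normalized counts per kb in young and 45.4 ± 4.90 in rejuvenated old MSCs (SD, n = 6) and 47.7 to 52.2 over the old libraries. Mcl1 was the leading guardian, at 737 ± 29.1 in young and 1002 ± 50.4 in old MSCs, ahead of Bcl2l1 at 451 ± 16.7 and 451 ± 20.4 (SD, n = 6). In young cells the order was Bax, Mcl1, Bak1, Bcl2l1, Bad, Bid, Bcl2l11, Bbc3, Pmaip1 and Bcl2, and the only neighbours whose libraries overlapped were Mcl1 and Bak1. Old cells had the order Bax, Bak1, Mcl1, Bad, Bid, Bcl2l1, Pmaip1, Bbc3, Bcl2l11 and Bcl2, with overlap between Bak1 and Mcl1 and between Bad and Bid. Among BH3-only genes Bcl2l11 thus stood above Bbc3 and Pmaip1 in young MSCs, 196 against 132 and 80.7 per kb, and below both in old MSCs, 105 against 161 and 235 per kb. Rejuvenated old cells kept Bcl2l11 below both, at 94.0 against 180.3 for Bbc3 and 174 for Pmaip1, whose libraries overlapped each other as those of Bad and Bid did.

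**Figure D3:**
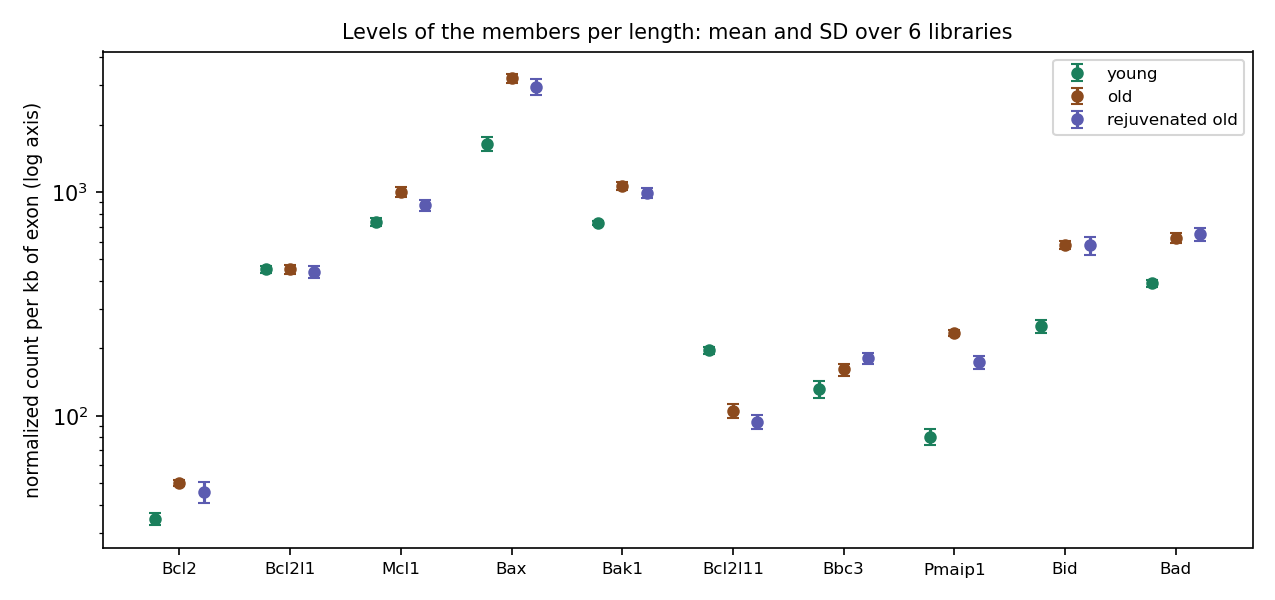
Normalized count per kb of exon (log axis) for each member in young, old and rejuvenated old MSCs, with mean and SD over 6 libraries. Bax is highest (1646, 3224 and 2961) and Bcl2 lowest (34.6 in young and 45.4 in rejuvenated old) in each group, and Bcl2l11 is the member with its highest level in young cells.

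Ratios of members within a library do not depend on how that library was scaled. Bax to Bcl2, per kb, had a median of 46.8 in young MSCs (42.3 to 58.5), 64.3 in old MSCs (60.8 to 69.0) and 64.8 in rejuvenated old MSCs (57.9 to 81.0). All young libraries were below all old ones, and 1 rejuvenated old library lay within the young range. Bak1 to Bcl2l1 was 1.59 in young MSCs (1.52 to 1.71), 2.43 in old MSCs (2.14 to 2.51) and 2.20 in rejuvenated old MSCs (2.18 to 2.52). Of all 6 pairs of an effector with a guardian, 4 had a lower ratio in every young library than in any old library, while young and old libraries overlapped for Bak1 to Bcl2 (19.6 to 22.4 and 20.7 to 22.5) and for Bak1 to Mcl1 (0.932 to 1.05 and 1.02 to 1.12). Bcl2l11 to Mcl1 went the other way, with a median of 0.264 in young MSCs (0.248 to 0.303), 0.111 in old MSCs (0.0888 to 0.117) and 0.107 in rejuvenated old MSCs (0.0920 to 0.122). For the effectors, Bax to Bak1 was 2.20 in young MSCs (2.08 to 2.61), 2.97 in old MSCs (2.78 to 3.30) and 3.02 in rejuvenated old MSCs (2.53 to 3.33). In all 4 ratios the old and rejuvenated old ranges overlapped. These are ratios of transcripts, and the amounts of protein were not measured.

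**Figure D4:**
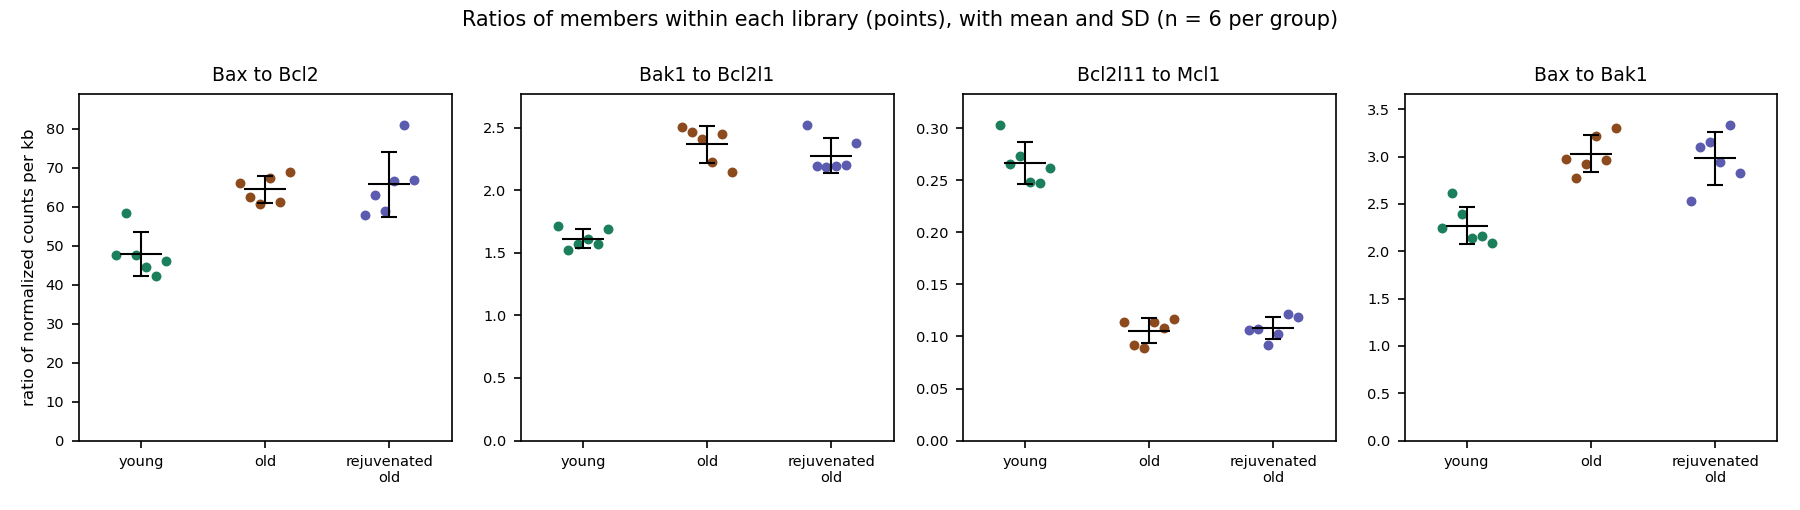
Ratio of normalized counts per kb for 4 pairs of members in each library (points; horizontal line and bars, mean and SD, n = 6). Young libraries are below old ones for Bax to Bcl2 (medians 46.8 and 64.3), Bak1 to Bcl2l1 (1.59 and 2.43) and Bax to Bak1 (2.20 and 2.97), and above them for Bcl2l11 to Mcl1 (0.264 and 0.111).

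Of 15 further genes of the family, 9 were tested. In young against old MSCs 5 were higher and 3 lower, beside 41.6% higher and 44.1% lower of all genes, with a median log2 fold change of 0.41. In rejuvenated old against old 4 were higher and 1 lower (median 0.10), beside 21.0% and 20.6% of all genes, and in rejuvenated old against young 3 were higher and 6 lower (median −0.21), beside 44.1% and 41.5%. Each median was the same with Bcl2a1b set at its bound. The medians of 0.41 and −0.21 are the values of Bcl2l12, which turned to −0.20 and 0.35 relative to the median of chromosome 7. These 2 medians therefore give no direction for the list that holds relative to the chromosome. Bnip3, which with Bnip3l marks mitochondria for autophagy and responds to low oxygen, counted 3339 to 3753 in young (median 3530.4), 895 to 1019.6 in old (median 976) and 2125 to 3174 in rejuvenated old libraries (median 2374). Its 3 groups did not overlap, and the rejuvenated old libraries, with replicate 5 highest, lay between the others. Bnip3 was 3.68-fold higher in young than in old (1.88 ± 0.06, SE, adjusted p = 7.50e-18) and 2.54-fold higher in rejuvenated old than in old MSCs (1.35 ± 0.06, SE, adjusted p = 2.62e-13). Relative to the median of chromosome 7 it was higher in young than in old by 1.27, and its difference of −0.53 in rejuvenated old against young became 0.03. Bnip3l was higher in young than in old by 1.19 ± 0.03 and in rejuvenated old by 0.11 ± 0.03 (SE, adjusted p = 3.10e-19 and 0.0166).

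Bmf, a BH3-only gene linked to the cytoskeleton, was 3.33-fold higher in young than in old MSCs (690.3 ± 53.2 against 207 ± 21.1, SD, n = 6, adjusted p = 2.30e-16), with 199 ± 14.1 in rejuvenated old MSCs (adjusted p = 0.605 against old). Like Bcl2l11 it thus stood higher in every young library than in any old one. The guardian Bcl2l2, encoding BCL-W, was 2.14-fold lower in young than in old (929.7 to 1031 against 2093 to 2227, adjusted p = 1.17e-19) and 1.07-fold higher in rejuvenated old than in old MSCs (adjusted p = 0.0127). Bok, an effector-like gene, was 1.69-fold lower in young than in old (587 ± 10.9 against 995 ± 82.1, SD, n = 6, adjusted p = 5.21e-12) and 1.25-fold higher in rejuvenated old (1245 ± 97.1, adjusted p = 4.06e-05). Its log2 fold change of −0.76 in young against old was −0.06 relative to the median of chromosome 1. Bcl2l13, a mitochondrial relative whose exon overlaps Bid on the opposite strand, differed by −0.06 in young against old (adjusted p = 0.127, and 0.0498 in a fit of these groups alone, in a range of 0.0498 to 0.772) and was lower in rejuvenated old MSCs, set against old ones (−0.19, adjusted p = 0.000405).

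Bcl2l12 was higher in young than in old by 0.41 (adjusted p = 0.000136), but lower (−0.20) relative to the median of chromosome 7. In rejuvenated old against old it stood at 0.20 (adjusted p = 0.0662) and passed without young replicate 1 (0.20, 0.0498), old replicate 1 (0.24, 0.0421), old replicate 4 (0.24, 0.0345) or rejuvenated old replicate 2 (0.23, 0.0491), in a range of 0.0345 to 0.179. In rejuvenated old against young it stood at −0.21 (adjusted p = 0.0284) and at 0.35 relative to its chromosome, a call lost without young replicate 1 (−0.16, 0.0890), rejuvenated old replicate 1 (−0.19, 0.0593), replicate 2 (−0.18, 0.0677) or replicate 6 (−0.20, 0.0501), in a range of 0.00267 to 0.0890. Bcl2l15, with a mean of 15.4 in young and 9.01 in old MSCs, was higher in young by 0.68 ± 0.25 (SE, adjusted p = 0.0146). Hrk, Bik, Bcl2l14, Bcl2l10, Bcl2a1a and Bcl2a1d were under the filter, Bcl2l14 with at most 14 reads, Bik with at most 7, and the rest with at most 4 in any library.

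Bcl2a1b, a guardian expressed mostly in blood cells, had 0 reads in all 6 young libraries against 63.4 to 72.3 normalized counts in the old and 46.2 to 75.3 in the rejuvenated old libraries. With 3 reads per library as the floor it was at least 21.8-fold lower in young than in old MSCs. The macrophage markers moved with it, 981 in sum at the young median, 14572 at the old and 13589.6 at the rejuvenated old, with Ptprc and Adgre1 at 0 reads in young libraries. Their part in this difference was not tested. The mouse genome holds near-identical copies of this gene, and how reads were shared among them is not given in the sources used here.

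Outside the family, 5 lists of genes around it were counted. Of all genes tested, 41.6% were higher and 44.1% lower in young than in old MSCs, and 21.0% were higher and 20.6% lower in rejuvenated old than in old. Of the 19 apoptosome and caspase genes, downstream of the mitochondrial pore, 7 were higher and 10 lower in young than in old MSCs (median −0.11), and 7 higher and 3 lower in rejuvenated old than in old (median 0.01). The mitochondrial protease Htra2 (0.74) and the nuclease Endog (0.66) were higher in young. Rejuvenated old MSCs had less of the initiator Casp9 (−0.16, adjusted p = 0.00658) than old ones, and more Endog (0.33) and Htra2 (0.32).

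Death receptor genes feed into Bid. Of the 10 listed, 8 were tested, and 6 were lower and 1 higher in young than in old MSCs (median −0.87), while 2 were lower and 1 higher in rejuvenated old than in old (median −0.04); Fasl had at most 3 reads in every library. The TRAIL receptor Tnfrsf10b was 2079 ± 72.5 in old, 431 ± 25.5 in young and 1608 ± 109 in rejuvenated old MSCs (SD, n = 6), and Fas 1353 ± 43.7, 328 ± 23.6 and 1164 ± 90.1. Both were lower than in old MSCs in young (−2.27 and −2.04) and in rejuvenated old cells (−0.37 and −0.22). The adaptor Fadd was higher in young (0.87, and 0.26 relative to its chromosome), and Cflar, an inhibitor of caspase-8, was higher in rejuvenated old than in old MSCs (0.11, adjusted p = 0.00954).

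Regulators that act on members, such as kinases, phosphatases and transcription factors, were tested for 19 of 20 genes, Trp73 having at most 3 reads in every library. In young against old 6 were higher and 12 lower (median −0.56), and in rejuvenated old against old 5 were higher and 7 lower (median −0.01). Pim1, a kinase that phosphorylates BAD, was 1447 ± 39.4 in young MSCs, 275 ± 32.0 in old MSCs and 373 ± 69.6 in rejuvenated old MSCs (SD, n = 6), higher than in old by 2.40 and 0.43. The stress factor Ddit3 was likewise higher in both (0.87 and 0.42). Mdm2, which marks p53 for destruction (−2.95), and Rps6ka1, another kinase of BAD (−1.81), were lower in young than in old. Foxo3, a transcription factor known to act on Bcl2l11 (−0.39), and Ppp3ca, the phosphatase calcineurin that acts on BAD (−0.37), were lower in rejuvenated old MSCs, taken against old ones.

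Bax, Bbc3 and Pmaip1 are known targets of p53, and 22 other p53 targets were listed, of which Fas and Tnfrsf10b were also counted above as death receptors and Mdm2 as a regulator. In young against old MSCs 4 were higher and 17 lower (median −1.93, the same with Perp at its bound), and in rejuvenated old against old 1 was higher and 14 lower (median −0.17). Cdkn1a, the cell cycle inhibitor p21, was 2381 ± 127 in young MSCs, 17769 ± 632 in old MSCs and 19087 ± 677 in rejuvenated old MSCs (SD, n = 6). It was the target called higher in rejuvenated old than in old (0.10, adjusted p = 0.0226, and 0.05 relative to its chromosome), a call lost, at 0.09 each, without old replicate 3 (adjusted p = 0.0549), old replicate 5 (0.0536), rejuvenated old replicate 4 (0.0504) or rejuvenated old replicate 5 (0.0534), in a range of 0.0117 to 0.0549. Other targets gained that call, Gdf15 with DESeq2 (0.15, adjusted p = 0.0257), edgeR (0.16, 0.0396) or a fit of these groups alone (0.15, 0.0264), in a range of 0.0257 to 0.295. Ddb2 gained it with a minimum mean of 50 (0.16, 0.0492) or 1 prior variance (0.16, 0.0429), and without old replicate 1 (0.18, 0.0470), old replicate 5 (0.19, 0.0414) or rejuvenated old replicate 5 (0.19, 0.0405), in a range of 0.0405 to 0.155. Gdf15 (−4.39) and Polk (−4.17) were lower in young than in old and Ddb2 (1.46) was higher, as was Perp, at 142 ± 21.6 in young (SD, n = 6) with at most 3 reads in any old library. Eda2r fell by 0.57 on the log2 scale from old to rejuvenated old MSCs (adjusted p = 2.44e-08). Trp53 itself, named after its values were seen, was 1525 ± 128 in young MSCs, 3596 ± 59.7 in old MSCs and 3966 ± 64.9 in rejuvenated old MSCs (SD, n = 6).

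Of 15 proliferation genes, 3 were higher and 8 lower in young than in old (median −0.21), and 6 were higher and 0 lower in rejuvenated old MSCs against old ones (median 0.21). Rrm2, a subunit of ribonucleotide reductase, was 259 ± 42.3 in young MSCs, 4415 ± 276 in old MSCs and 5735 ± 404 in rejuvenated old MSCs (SD, n = 6). Ccnb1 was lower (−0.91) and Tyms (0.61) and Mcm2 (0.43) were higher in young than in old, and Cdk1 was higher in rejuvenated old than in old (0.42, adjusted p = 6.35e-07). Ccnb1 passed in rejuvenated old against old only without rejuvenated old replicate 6 (0.26, adjusted p = 0.0484, against 0.21 and 0.118 with all libraries). The part of growth state in the differences of the members was not tested.

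**Figure D5:**
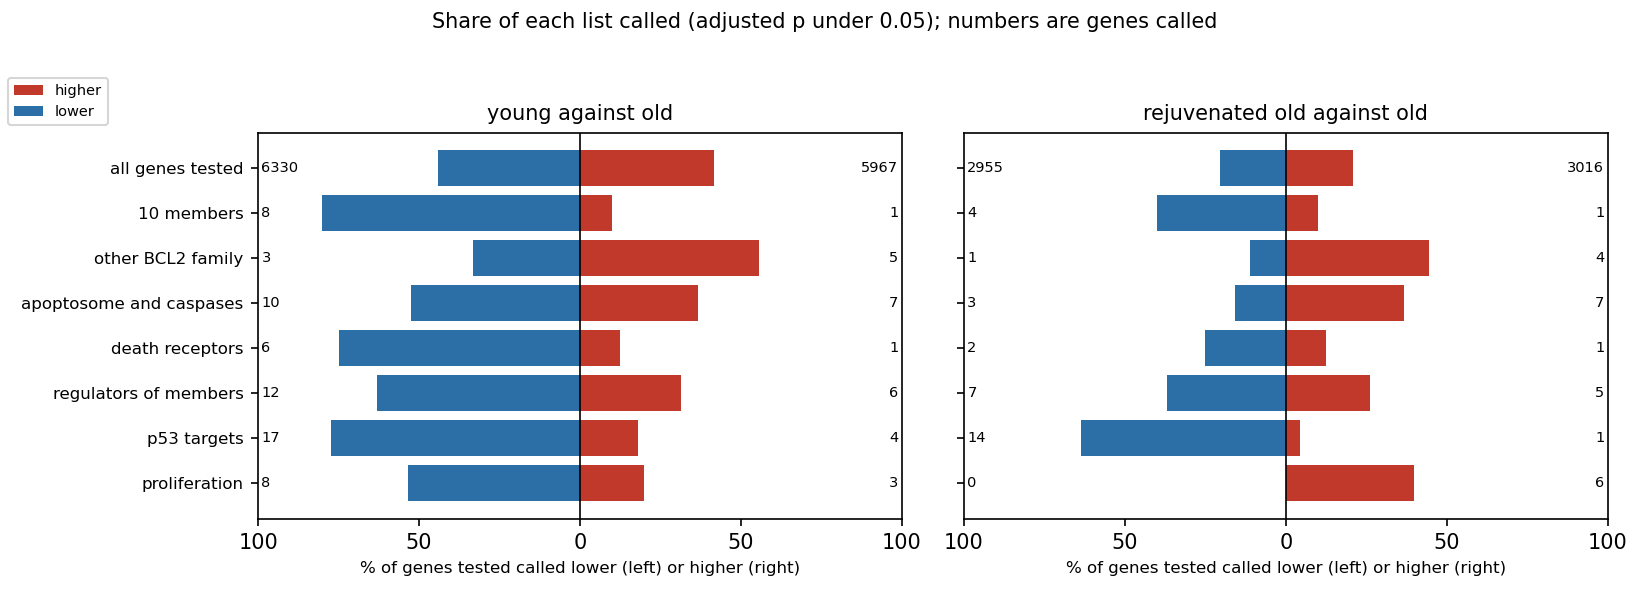
Share of the tested genes of each list that was lower (left, blue) or higher (right, red) at an adjusted p under 0.05, for young against old and rejuvenated old against old MSCs, with the number of genes at the edge. The 10 members had 8 lower and 1 higher in young against old, where Bcl2, counted as lower, is higher relative to its chromosome, beside 44.1% lower and 41.6% higher of all genes tested.

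The upstream sequence was examined for the p53 decamer, the 10-base repeat unit of the p53 response element, whose consensus is its own reverse complement and so covers both strands. RefSeq promoter sequences (GRCm38.p6) were at hand for 9 of 10 members, all but Pmaip1. In the 250 bases before the start, 1 of 9 members held a match, against 2216 of 27025 genes (8.20%). That member was Bax, whose match, at chr7:45467090-45467099 on the minus strand, ends 192 bases before the start used in these promoter sequences. That start differs from the gene end given above. The match describes a stretch of sequence only. It is shown with its surroundings, chr7:45467060-45467129, with the match in capitals, because Bax is the member that holds one.
Bax upstream: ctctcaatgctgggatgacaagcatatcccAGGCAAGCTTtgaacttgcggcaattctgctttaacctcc
The match describes these letters, and binding of p53 was not measured.

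For the 3 members with the widest range of group means, the tested genes nearest in pattern over the 3 group means were found by Euclidean distance on the log2 scale after centring. Nearest to Pmaip1 were Wdr35 (distance 0.0189), Nap1l3 (0.0229) and Cep170b (0.0280), with 55 genes within 0.1. Bid was nearest to Wrb (0.00695), Coro1c (0.00927) and Dynlt1f (0.0146), with 144 genes within 0.1. Bcl2l11, high in young cells, was near Cntnap1 (0.0119) and Slc11a2 (0.0121), with 119 genes within 0.1.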

How the data were processed

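Messenger RNA was sequenced in 18 libraries. The authors aligned reads to mm10 with HISAT2 and used StringTie, featureCounts and DESeq2 on Galaxy; versions, annotation, strand setting and filters are not given in the sources used here. The deposited values are signal, reads divided by 1 size factor per library, and 100% of them gave whole reads within 0.1 of a read (largest departure 5.55e-05). Values were taken as log2 of the value + 1, and genes with a mean of at least 10 were fitted together by limma 3.58.1 in R 4.3.3, with a mean per group, a prior variance that follows the mean and Benjamini-Hochberg adjustment over all 14353 genes (two-sided); an adjusted p under 0.05 is a call. Lengths are unions of GENCODE M21 exons, and 25275 of 27179 genes matched RefSeq GRCm38.p6. Alternatives were other pseudocounts, filters and scalings, fits of 2 groups, with 1 prior variance or with replicate number as a block, edgeR 4.0.16 and DESeq2 1.42.0 on recovered reads (6213 and 6345 calls for rejuvenated old against old, 5971 with limma), values relative to the chromosome median, and leaving out each library. The code (Python 3.11.15) was tested on simulated data. Members and lists were chosen with earlier results of these data known. Named genes were the members, all other listed family genes, of each pathway list the 2 genes that rose most and the 2 that fell most among those called, in young and in rejuvenated old against old, and of each marker list the most abundant gene and those with at most 3 reads throughout.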

Additional observations from a re-analysis of the deposited data

Results flagged for a closer look

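In 2 of 56 groups of 6 libraries, over 19 genes of the family, a library stood apart from the rest of its group by more than Dixon's 95% critical share of the group's range, and chance gives about 1 in 20 such groups. Bcl2l11 in young replicate 1 was 1695 normalized counts against 1531 to 1581 in the other young libraries, a gap of 0.693 of the range. Bnip3l in young replicate 3 was 6166 against 5443 to 5623 in the others, a gap of 0.751 of the range.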

How the results depend on the processing

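For the 10 members in 3 comparisons, 858 of 900 values under other settings were the same, 17 lost the call, 13 gained it, 10 moved by more than the spread between replicates when taken relative to the chromosome median, and 2 changed sign from a called value. The same means the same side of the threshold and, for called values, the same direction, or, relative to the chromosome median, a move within the spread between replicates. Values that were not called also crossed 0, in Bcl2l1 in young against old (−0.02 to 0.10) and in Bid in rejuvenated old against old (−0.04 to 0.02). The sign changes from a called value were both in Bcl2 relative to the median of chromosome 1, to 0.16 in young against old and −0.30 in rejuvenated old against young; the alternative subtracts a chromosome median of −0.69 and 0.69. The number of members called stayed at 9 in young against old under every setting, lay at 9 to 10 in rejuvenated old against young, and lay at 3 to 6 in rejuvenated old against old when single libraries were left out. It was 3 without old replicate 1, old replicate 3 or rejuvenated old replicate 2, and the cause was not tested. With replicate number as a block (replicate block) the counts were 9, 4 and 9, Bbc3 in rejuvenated old against old stood at 0.16 with an adjusted p of 0.0635, and 5769 genes were called in that comparison against 5971 without it. Libraries of the same number in different groups correlated at −0.152 to 0.074 after removal of group means (means −0.001, −0.042 and 0.011), so the numbers show no pairing. For the other named genes the values relative to the chromosome median were added after seeing the data. Of 3141 values 3076 were the same, 9 lost the call, 14 gained it, and 39 moved and 3 changed sign relative to the chromosome median. The sign changes were on chromosome 7, in Bcl2l12 (−0.20 in young against old and 0.35 in rejuvenated old against young) and in Bnip3 (0.028 in rejuvenated old against young), where the medians subtracted were 0.61 and −0.56. Some values that were not called crossed 0, as Bcl2l13 did in young against old (−0.14 to 0.01). Depth was ample for the members, whose lowest group median was 229 normalized counts, and limits the genes with few reads named above.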
